A study of Mus musculus with 3 samples.

Results

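Nuclear-encoded respiratory chain genes were examined as one module in sorted pyramidal neurons of mouse CA1, a field of the hippocampus. Members were the nuclear protein-coding genes of GENCODE vM21 whose symbols begin with Nduf, Uqcr, Atp5 or Cox4 to Cox8, or are Sdha, Sdhb, Sdhc or Sdhd. The rule used names alone, and it gave 93 genes among 52636 in the count table and among 21883 nuclear protein-coding genes. Another 13 genes with matching names were left out because they are not annotated as protein-coding, of which 12 are processed pseudogenes. Levels are given as TPM, a relative transcript abundance made by dividing counts by gene length and scaling to a fixed sum over nuclear protein-coding genes. Errors are SDs over 3 replicates.

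The study sequenced poly(A) RNA from tdTomato-positive cells as the transcriptome of the CA1 pyramidal neuron, beside its work on the RNA-binding protein FMRP. There was 1 group of 3 replicates, each pooled from a few mice, so no condition could be compared. All mice were male, on a C57BL/6J background and P28 to P32, and carried Camk2a-Cre and the Ai14 reporter, each in 1 copy (+/-). Hippocampal tissue was dissociated with papain and live tdTomato-positive cells were sorted, so which cells entered a library was set by where the Camk2a promoter had driven Cre. Because RNA was pooled over many cells, fewer cells of a type and less RNA per cell cannot be told apart.

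The respiratory chain sits in the inner mitochondrial membrane. Complex I takes electrons from NADH and complex II from succinate, complex III passes them to cytochrome c, complex IV hands them to oxygen, and complex V, the ATP synthase, uses the resulting proton gradient to make ATP. Most subunits are encoded in the nucleus and imported, whereas a few of the most hydrophobic ones are encoded by mitochondrial DNA. Neurons draw heavily on this pathway to restore ion gradients after electrical activity.

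Total counts were 48159841, 25686630 and 15833075 in replicates 1 to 3, and mitochondrial genes took between 7.09% and 10.6% of them. All 7 listed CA1 pyramidal markers were detected, with Fibcd1 at 450 ± 56.5 TPM and Wfs1 at 404 ± 18.9 TPM (n = 3). Markers of other cells were also counted. In replicates 1 to 3 the 8 oligodendrocyte markers summed to 821, 905 and 811 TPM, the 7 astrocyte markers to 259.8, 162 and 327 TPM, the 5 microglial markers to 37.5, 47.0 and 53.8 TPM and the 5 interneuron markers to 84.3, 67.6 and 90.7 TPM. The 5 endothelial markers summed to 10.04, 21.6 and 71.7 TPM and the 7 mural cell markers to 22.6, 27.9 and 89.3 TPM. All of these lists except the oligodendrocyte one were highest in replicate 3.

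Short stretches of coding sequence help in reading the values of the c subunit of complex V, which forms the proton-driven ring and is encoded by Atp5g1, Atp5g2 and Atp5g3. The proteins share their last 78 residues, and over the 234 bases that encode them Atp5g1 differs from Atp5g3 at 50 positions and Atp5g2 at 53. The first 120 of these bases are shown from the annotated transcripts (GENCODE vM21, GRCm38), with capitals where Atp5g1 or Atp5g2 differs from Atp5g3. The genes lie at chr11:96068852-96075670, chr15:102662864-102672352 and chr2:73908447-73911326, all on the minus strand.
Atp5g1: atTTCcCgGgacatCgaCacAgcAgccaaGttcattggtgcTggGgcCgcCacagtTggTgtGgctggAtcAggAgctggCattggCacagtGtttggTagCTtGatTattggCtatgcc
Atp5g2: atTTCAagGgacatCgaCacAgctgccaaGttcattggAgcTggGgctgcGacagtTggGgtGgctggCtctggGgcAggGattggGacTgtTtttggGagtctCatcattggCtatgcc
Atp5g3: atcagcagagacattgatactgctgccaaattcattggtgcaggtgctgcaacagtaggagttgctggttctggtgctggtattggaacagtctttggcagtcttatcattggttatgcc

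The differences are spread over the stretch, with 29 in Atp5g1 and 26 in Atp5g2, and no 50-base word of Atp5g3 transcripts occurs in another annotated gene. All 3 genes were counted. Atp5g3 was at 332, 335 and 339 TPM, Atp5g1 at 58.4, 62.0 and 48.7 TPM, and Atp5g2 at 31.9, 31.0 and 34.5 TPM. Atp5g3 was the highest in every replicate, with 79.1% ± 1.07 of the summed level, against 13.3% ± 1.54 for Atp5g1 and 7.65% ± 0.479 for Atp5g2 (n = 3). The ranges of the 3 genes did not overlap. The order of the 2 lower genes rested on the length used. In Atp5g1 the merged exons span 4912 bases and the principal transcript 4715, against 1675 and 731 in Atp5g2. With the length of each gene's principal transcript, a choice made after seeing the data, Atp5g2 stood at 49.95 ± 2.63 TPM and Atp5g1 at 39.4 ± 4.95 TPM. Atp5g2 shared 38.3% of its 50-base words with 3 other genes, of which the pseudogene Gm10231 had 21, 18 and 2 counts and Gm10175 had 6, 3 and 0. Atp5g1 shared 11.1% of its words with 366 other genes, and 335 of these words with the pseudogene Gm10039, which had 1747, 905 and 535 counts against 2391, 1345 and 617 for Atp5g1. How reads were split between Atp5g1 and this copy is uncertain.

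Of the 93 members, 85 had a CPM (the count scaled to the library's total) of at least 1 in all 3 replicates, a level reached by 57.0% of nuclear protein-coding genes. The 8 that did not are all listed as tissue isoforms of complex IV subunits and are described with their partners below. The detected members spanned 15.0 TPM (Ndufaf2) to 1325 TPM (Cox8a), and 24.4 TPM (Ndufaf6) to 1070 TPM (Atp5b) with principal transcript lengths. A mean of at least 100 TPM was reached by 59 of 85, against 19.9% of the detected protein-coding genes, and 44 stood among the highest 10% of these. Together the members made up 1.81%, 1.82% and 1.72% of nuclear protein-coding TPM.

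**Figure D1:**
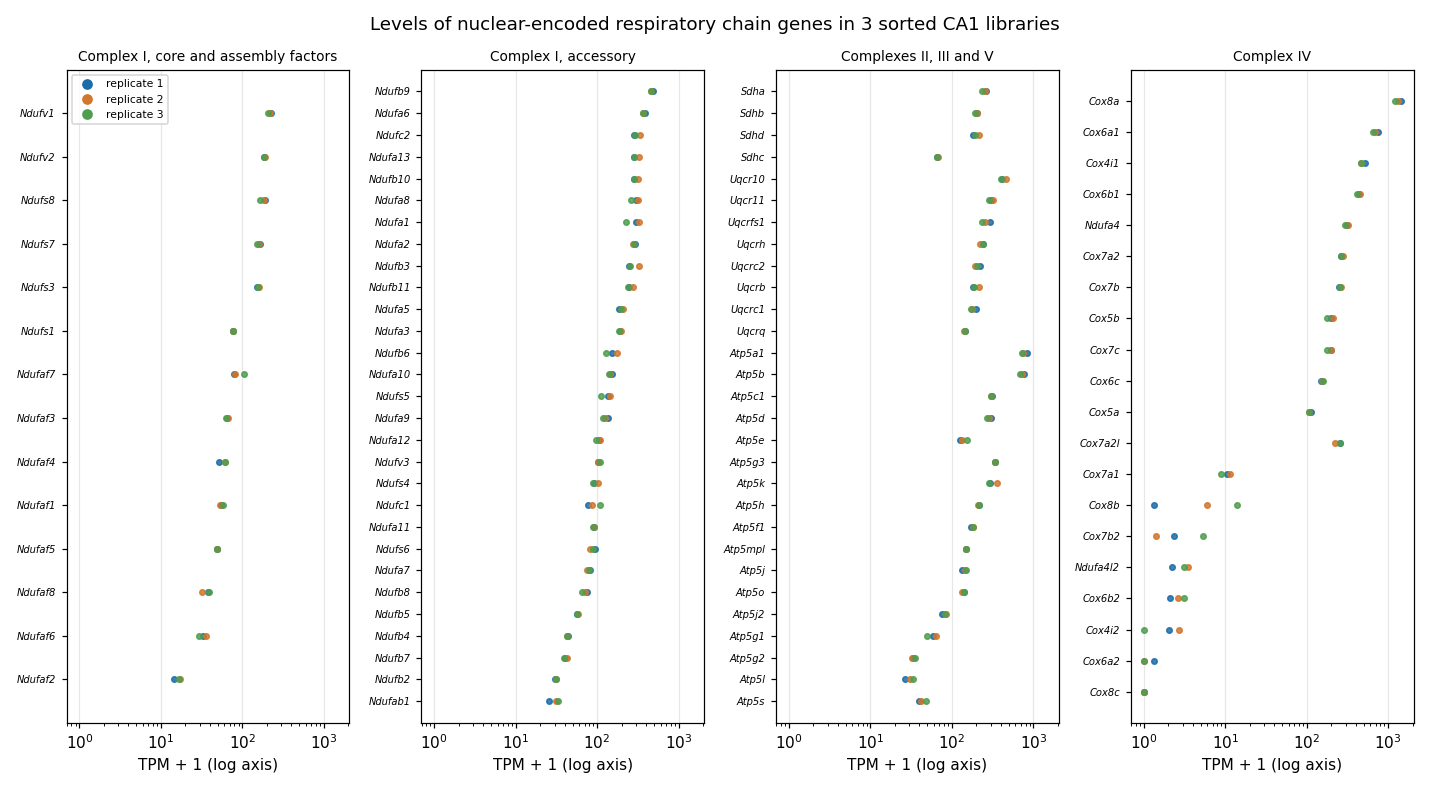
Level of the members in each replicate, as TPM + 1 on a log axis, with 1 row per gene, grouped by complex and by role within it. 1 member is not drawn. Most subunit genes lie near or above 100 TPM with the 3 replicates close together, and the 8 tissue isoforms of complex IV lie at the low end of the last panel.

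The 10 highest members came from 4 complexes, with Atp5g3, given above, at the end. Cox8a, a small structural subunit of complex IV, led with 1421, 1336 and 1220 TPM. Atp5a1 and Atp5b encode the alpha and beta subunits of the catalytic head of the ATP synthase, and had 831, 753 and 732 TPM and 757, 720 and 683 TPM. Atp5a1 was the higher in each replicate, but the ranges of the pair overlapped. Cox6a1 followed with 741, 680 and 652 TPM, and Cox4i1, the isoform of subunit 4 found in most tissues, with 513, 463 and 458 TPM. Ndufb9, an accessory subunit of complex I, had 485, 463 and 457 TPM. Cox4i1 and Ndufb9 overlapped as well. Cox6b1 had 438, 448 and 411 TPM and Uqcr10, a small subunit of complex III, 414, 461 and 403 TPM. Ndufa6, another accessory subunit of complex I, had 382, 362 and 365 TPM, below both of them in every replicate. With principal transcript lengths Atp5b was the highest member at 1070 ± 62.3 TPM, followed by Cox8a at 883 ± 72.9 TPM.

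Complex I was represented by 36 detected subunits with a median of 151, 158 and 145 TPM. Its 7 core subunits carry the flavin and the iron-sulfur clusters of the electron path, and Ndufs1 among them was at 75.9 TPM, or 155 TPM with its principal transcript length. The 29 accessory subunits ranged from 28.9 TPM (Ndufab1, the acyl carrier protein) to 468 TPM (Ndufb9), and from 25.8 TPM (Ndufb2) to 329 TPM (Ndufb10) with principal transcript lengths. On the log2(TPM + 1) scale the core median exceeded the accessory median by 0.46, 0.35 and 0.49 in replicates 1 to 3. All 3 differences were above 0, but the exact sign-flip permutation test over 3 replicates cannot give a two-sided p under 0.25, the value it gave (p = 0.25). With principal transcript lengths the difference was 0.13 ± 0.06.

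The 8 assembly factors Ndufaf1 to Ndufaf8 help to build complex I without staying in it. Their median was 49.1, 49.8 and 52.3 TPM, and no assembly factor reached 100 TPM, the highest being Ndufaf7 at 86.9 ± 14.1 TPM. The subunit median lay above the assembly factor median by 1.60, 1.64 and 1.46 on the log2 scale (mean 1.57 ± 0.10, exact sign-flip p = 0.25, two-sided). Ndufaf2 was the lowest at 15.0 TPM but rose to 44.2 TPM with its principal transcript length, where Ndufaf6 was the lowest at 24.4 TPM. Of the exon bases of Ndufaf2, 65.6% overlap the exons of another gene, and whether counting used strand was not given in the sources used here. A further 6 complex I assembly genes outside the naming rule were all detected, between 4.06 TPM (Nubpl) and 97.5 TPM (Ecsit). Among nuclear protein-coding genes 57.0% were detected.

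Complex II is the one complex with no mitochondrially encoded subunit. Sdha, which binds the flavin and oxidizes succinate, had 263, 252 and 231 TPM. Sdhb, the iron-sulfur subunit, had 202, 202 and 192 TPM. Of the 2 membrane anchors, Sdhd had 183, 211 and 189 TPM and Sdhc 65.3, 67.4 and 65.0 TPM. Sdha was above the other 3 in every replicate, Sdhb and Sdhd overlapped, and Sdhc was the lowest in every replicate. The order of Sdha and Sdhb turned with principal transcript lengths (238 ± 17.0 and 262 ± 9.26 TPM), while Sdhc remained the lowest at 45.4 ± 0.909 TPM.

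The 8 nuclear subunits of complex III had an SD of log2(TPM + 1) over genes of 0.49 ± 0.03, against 0.85 ± 0.03 in complex II, 1.04 ± 0.03 in complex I and in complex IV and 1.36 ± 0.04 in complex V. With the median coding transcript length the order turned, with 0.73 in complex III, 0.67 in complex II and 0.71 in complex IV. Uqcr10 was the highest, as given above, and Uqcr11, which like it is a small subunit, had 297, 320 and 284 TPM. Uqcrfs1, the Rieske iron-sulfur protein, had 295, 254 and 233 TPM. Uqcrh, the hinge protein, had 237, 223 and 242 TPM. These last 2 overlapped. The large core proteins Uqcrc2 and Uqcrc1 had 222, 193 and 200 TPM and 199, 178 and 169 TPM. Their order turned with principal transcript lengths, at 185 ± 15.1 TPM for Uqcrc2 and 306 ± 28.0 TPM for Uqcrc1. Uqcrb had 183, 213 and 188 TPM, and Uqcrq, the lowest, had 143, 141 and 142 TPM. Uqcrb shares 43.4% of its 50-base words with 5 other genes. Cyc1, the cytochrome c1 subunit of complex III that the naming rule does not reach, was higher than any of the 8, with 469, 481 and 450 TPM. Cytochrome c itself (Cycs) had 55.7, 64.3 and 57.1 TPM.

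Complex IV had the highest median of the 5 complexes, at 261, 279 and 264 TPM over 11 subunits. Ndufa4, named for complex I and since placed in complex IV, had 307, 324 and 292 TPM. Cox7a2 had 261, 279 and 264 TPM and Cox7b 250, 261 and 257 TPM, so these 2 overlapped. The subunits below 200 TPM were Cox5b at 194 ± 15.3, Cox7c at 192 ± 11.9, Cox6c at 152 ± 5.76 and Cox5a at 107 ± 2.87 TPM. Cox6c and Cox5a have long merged exons, and with principal transcript lengths they stood at 494 ± 15.5 and 234 ± 7.90 TPM. Cox7a2l, a relative of Cox7a2 that takes part in joining complexes into supercomplexes, had 259, 220 and 252 TPM.

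Several complex IV subunits exist as isoforms encoded by separate genes, of which one is used in most tissues and the other mainly in heart and skeletal muscle, lung or testis. In CA1 neurons the widely used gene was the higher one of all 8 such pairs, in every replicate. The lower partners were near 0. Cox6a2, the heart and muscle isoform, had 2, 0 and 0 counts, against 4338, 2108 and 1180 counts for Cox6a1. The pooled ratio per length was 3694 in favour of Cox6a1, with an exact 95% interval from 1022 to 30504 that covers counting error only. Cox8c, a testis isoform, had no counts in any replicate. Taking 3 counts as the limit that a count of 0 allows in a library, Cox8a was at least 480.4-fold higher.

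Cox4i2, an isoform of lung and other oxygen-sensing tissue, had 7, 6 and 0 counts, and Cox4i1 exceeded it 455-fold per length over the pooled libraries (266 to 854), or between 383 and 614-fold with 1 library left out. Cox6b2 had 10, 8 and 6 counts, with a ratio of 309 (207 to 483) for Cox6b1. Cox7b2 had 6, 1 and 6 counts, with a ratio of 163 (95.0 to 306) for Cox7b, or 251 without replicate 3. Each of these 3 partners was therefore counted in too few reads for its spread over replicates to be read. Ndufa4l2, a relative of Ndufa4 known to be induced by low oxygen, had 11, 12 and 6 counts and was 179-fold lower than Ndufa4 (125 to 268). Cox7a1, the heart and muscle partner of Cox7a2, was the best counted of the group with 43, 25 and 11 counts, or 9.64, 10.6 and 7.97 TPM. It missed the detection limit by little, and Cox7a2 was 27.1, 26.4 and 33.1-fold higher in replicates 1 to 3.

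Cox8b, the heart and muscle partner of Cox8a, differed between the libraries. It had 1, 8 and 12 counts, or 0.333, 5.03 and 12.9 TPM, although replicate 1 was the deepest library. Cox8a was 4265, 265 and 94.4-fold higher in replicates 1 to 3. The pooled ratio of 358 (234 to 579, counting error only) therefore rests on which libraries enter it, with 163 without replicate 1 and 710 without replicate 3. The summed endothelial, mural and microglial markers given above were likewise lowest in replicate 1 and highest in replicate 3. Single markers differed, with Cldn5 at 5.85, 10.6 and 49.4 TPM, Acta2 at 3.64, 3.56 and 27.4 TPM and Kdr, highest in replicate 2, at 1.53, 2.91 and 2.53 TPM. Of the 5 endothelial markers 4 were detected, of the 7 mural markers 4 and of the 5 microglial markers 5, and their part in the Cox8b counts was not tested.

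**Figure D2:**
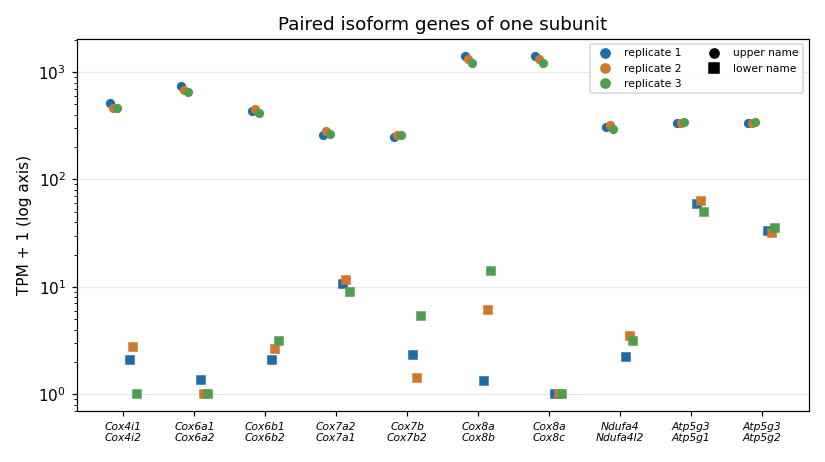
TPM + 1 on a log axis for the 10 isoform pairs, with circles for the upper name, squares for the lower name and colours for the 3 replicates. The first 8 pairs are separated by more than an order of magnitude, whereas Atp5g1 and Atp5g2 sit at 56.4 and 32.5 TPM under Atp5g3 at 336 TPM.

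Complex V had 16 detected subunits with a median of 158, 164 and 166 TPM, which overlapped the complex I medians. The 5 subunits of the catalytic head ranged from 136 TPM (Atp5e) to 772 TPM (Atp5a1), and the 11 of the membrane part and stalk from 29.3 TPM (Atp5l) to 336 TPM (Atp5g3). With principal transcript lengths the head ranged from 261 TPM (Atp5d) to 1070 TPM (Atp5b), with Atp5e at 380.2 TPM, and the membrane part and stalk from 39.4 TPM (Atp5g1) to 680.0 TPM (Atp5g3). Atp5l, subunit g, is the member whose level rests most on the length. Its merged exons span 6443 bases and its principal transcript 544, and it stood at 29.3 ± 3.61 TPM with the first and 233 ± 27.2 TPM with the second. In addition, 84.8% of its 50-base words occur in transcripts of 14 other genes, so its counts depend on how shared reads were treated. Among all members, 24 share over 10% of their words with other genes. Exons of 11 members overlap another gene by over 10%. The levels of these members carry the same limit, also where it is not repeated. Atpif1, the inhibitor that binds the head of the ATP synthase, had 176, 176 and 174 TPM.

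Levels between genes therefore depend on the length chosen. When the principal transcript replaced the merged exons, 20 of the 85 detected members rose by more than 1.5 times. The share of all detected protein-coding genes that did so was not counted, so this is not shown to be particular to the members. Over the detected members the median ratio was 0.962, with a range from 0.621 (Ndufb9) to 7.95 (Atp5l). The scaling to a fixed sum changed as well, so Ndufa2, with 572 bases by either length, had a ratio of 0.672. Ndufb7 moved from 39.8 to 194 TPM, Ndufa11 from 89.3 to 293 TPM and Ndufb8 from 69.9 to 217 TPM. The complex medians became 171 ± 7.75 TPM in complex I, 184 ± 9.75 in complex II, 250.4 ± 14.1 in complex III, 333 ± 15.98 in complex IV and 305 ± 4.15 in complex V. Complex IV kept the highest median and complex I the lowest with either length, while complex V moved from below complexes II and III to above them.

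**Figure D3:**
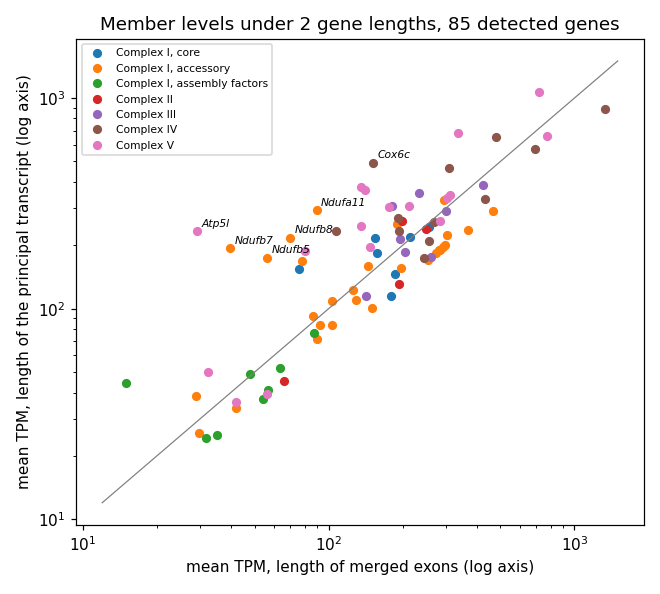
Mean TPM of the 85 detected members from the merged exon length (x axis) and from the principal transcript length (y axis), both on log axes, with colours for the complexes and a grey line of equality. Atp5l, Ndufb7, Ndufa11, Cox6c, Ndufb8 and Ndufb5, which are labelled, lie well above the line.

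The coefficient of variation (CV) of normalized counts was at most 10% in 61 of 85 members, against 58.5% of detected protein-coding genes, and its median was 7.93% against 8.75%. Cox6c varied the least, at 0.402%. Among detected genes of at least 100 TPM the median CV was 7.08%, and 76.5% had a CV of at most 10%. The members, with 71.8% at or under 10%, lay between the 2 backgrounds in both measures.

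The 5 detected members with the highest CV were Ndufa1, Ndufb6, Ndufb3, Uqcrfs1 and Ndufs5. Ndufa1, an X-linked accessory subunit of complex I, had 299, 326 and 227 TPM and a CV of 20.9%. Ndufb6 had 150, 172 and 128 TPM, and 39.0% of its exon bases overlap those of Smim27. Ndufb3 had 247, 321 and 251 TPM and Ndufs5 134, 142 and 111 TPM. Of these, 4 were accessory subunits of complex I, highest in replicate 2. Uqcrfs1 was highest in replicate 1.

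In counts normalized by size factors, replicate 3, the shallowest library, was the lowest of the 3 for 65 of 85 members, against 45.7% of detected protein-coding genes. In TPM it was the lowest for 44 of 85, against 31.1% of detected protein-coding genes and 43.6% of those of at least 100 TPM. The median log2 deviation of members from their own mean was 0.06, 0.03 and -0.09 in replicates 1 to 3, compared with 0.04, -0.005 and -0.03 for all detected protein-coding genes. For genes of at least 100 TPM it was 0.06, 0.02 and -0.08, and 65.9% of them were lowest in replicate 3 in normalized counts. The deviation in replicate 3 was -0.10 in complex I, -0.10 in complex II, -0.12 in complex III, -0.13 in complex IV and -0.04 in complex V, and near 0 in the complex I assembly factors. With 1 group, the depth, the markers of other cells and the animals of replicate 3 cannot be told apart.

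**Figure D4:**
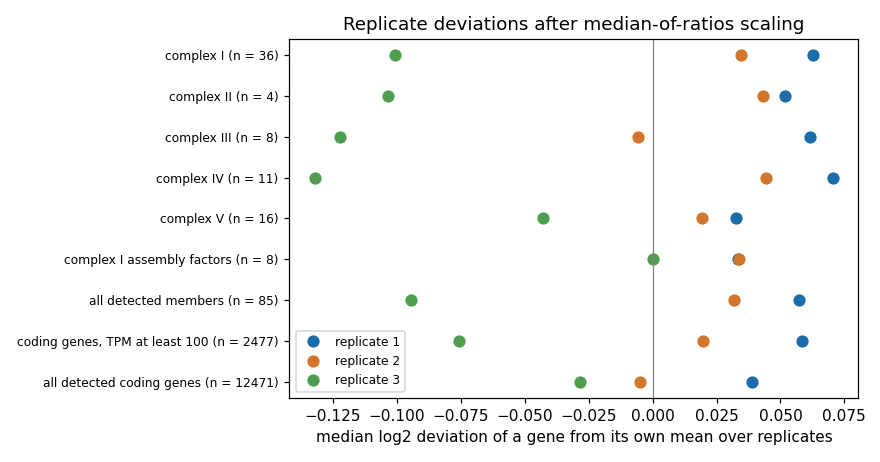
Median log2 deviation of genes from their own mean over replicates, after median-of-ratios scaling, for the members by complex and for 2 backgrounds, with the number of genes in brackets. Replicate 3 lies lowest in all sets shown, down to -0.13 in complex IV, and the coding genes of at least 100 TPM lie closer to the members than all detected coding genes do.

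Mitochondrially encoded subunits were counted in the same libraries and are given on the scale of the nuclear genes. Their median exceeded that of the nuclear subunits of the same complex by 7.23 ± 0.46 on the log2 scale in complex I, 8.05 ± 0.33 in complex III, 2.92 ± 0.35 in complex IV and 2.94 ± 0.39 in complex V (exact sign-flip p = 0.25 for each, two-sided). Poly(A) selection and RNA stability differ between nuclear and mitochondrial genes, and how shared reads were treated was not given in the sources used here. Their part in these differences, and in those between mitochondrial genes, was not tested. These medians were over 7 mitochondrial genes in complex I, 1 in complex III (mt-Cytb), 3 in complex IV and 2 in complex V. In complex IV the median was mt-Co2 in every replicate, so the difference rests on that gene. The mitochondrial genes of complex IV were far from even in these counts, unlike those of complex V. In complex IV, mt-Co1 was at 92251 ± 24515 TPM, mt-Co2 at 2076 ± 500.3 TPM and mt-Co3 at 1523 ± 369 TPM. In complex V, mt-Atp6 was at 1283 ± 313 TPM and mt-Atp8 at 1291 ± 399 TPM. The replicates also split, since mt-Co1 was highest in replicate 1 (116530, 67508 and 92716 TPM) and mt-Co2 lowest there (1505, 2284 and 2438 TPM).

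**Figure D5:**
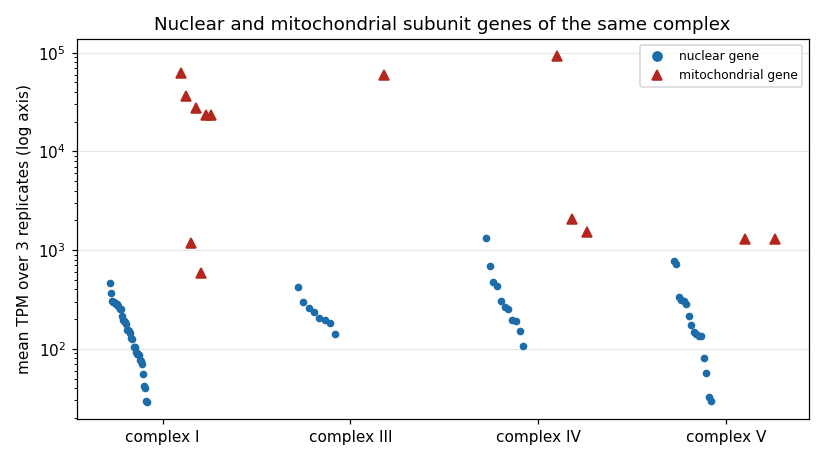
Mean TPM over 3 replicates on a log axis for the detected nuclear subunits (circles) and the mitochondrially encoded subunits (triangles) of 4 complexes. In all 4 complexes the mitochondrial genes lie above the nuclear ones of their complex, from 582 TPM (mt-Nd4l, complex I) to 92251 TPM (mt-Co1, complex IV).

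Promoter windows were searched for sequence that the naming rule did not use. RefSeq windows from 250 bases before to 50 after a gene start (GRCm38.p6) were matched to 74 members, and 4 motifs were searched on both strands without mismatch. The 8-base core of the NRF1 site, CGCATGCG, was in the windows of 11 members (14.9%), against 4.39% of 9812 detected protein-coding genes and 2.07% of all 27025 genes. The YY1 motif AAGATGGCG was in 8 members (10.8%, against 3.61% and 1.64%). The ERR motif TCAAGGTCA was in 2 members (2.70%, against 0.316% and 0.466%). The ETS motif CCGGAAGT, which GABP binds, was in 5 members (6.76%, against 9.01% and 4.31%). This share was below that of detected genes and above that of all genes. At least 1 motif was in 24 of the 74 members, against 16.2% of detected genes. Over the 70 detected members alone the shares were 15.7% (NRF1), 11.4% (YY1), 2.86% (ERR) and 7.14% (ETS). Over 16478 nuclear protein-coding genes, detected or not, they were 2.90%, 2.26%, 0.388% and 5.95%. The members had 1.07 windows per gene and the detected genes 1.29, which was not adjusted for. NRF1, GABP, YY1 and the estrogen-related receptors are known regulators of respiratory genes. A match is a description of the letters and not evidence of binding.

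The windows below show the NRF1 core in members of 3 complexes, with the ERR motif of Atp5g3 beside it, since Atp5g3 and Atp5g2 encode the same mature protein and differ in the motif found. Each is written in the direction of the gene, with the motif in capitals. They lie at chr5:115349087-115349144 (Cox6a1, minus strand), chr17:56717678-56717735 (Ndufa11, plus), chr5:108434416-108434473 (Atp5k, minus), chr15:102671056-102671113 (Atp5g2, minus) and chr2:73911345-73911403 (Atp5g3, minus).
Cox6a1: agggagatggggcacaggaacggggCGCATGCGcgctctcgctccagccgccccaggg
Ndufa11: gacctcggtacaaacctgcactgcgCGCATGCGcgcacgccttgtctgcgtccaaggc
Atp5k: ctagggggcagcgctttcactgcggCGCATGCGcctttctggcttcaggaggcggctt
Atp5g2: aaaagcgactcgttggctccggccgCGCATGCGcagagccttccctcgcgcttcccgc
Atp5g3: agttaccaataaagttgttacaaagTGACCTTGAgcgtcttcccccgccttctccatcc

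In Atp5g3 the motif is read on the opposite strand. Members with the NRF1 core ranged from 29.3 TPM (Atp5l) to 691 TPM (Cox6a1) on merged exon lengths. The 11 listed regulators of mitochondrial gene expression were all detected, between 11.2 TPM (Tfb1m) and 106 TPM (Esrra). Ppargc1a, the coactivator PGC-1alpha, had 21.7, 21.2 and 25.8 TPM. Of the other assembly genes, all 4 for complex II, all 6 for complex III and 18 of 22 for complex IV were detected. All 4 in the list of complex V assembly factors and inhibitor were detected too. The same limit was passed by 57.0% of nuclear protein-coding genes.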

How the data were processed

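Poly(A) RNA libraries of 3 replicates of sorted CA1 neurons were analysed. The authors deposited whole-number counts per gene with the merged exon length. The submitters' processing notes name STAR, featureCounts, mm10 and GRCm38; the study's methods name GENCODE vM15 for its ribosome-tagging libraries. For the sorted cells the annotation release, and versions, strand setting and multimapping, were not given in the sources used here. Genes were named from GENCODE vM21, in which 79 of 93 members had the same start and end as in the count table. The members and lists were chosen with earlier results of these data known. TPM was computed from merged exon lengths over nuclear protein-coding genes, with a pseudocount of 1 on the log2 scale. Genes under a CPM of 1 in any library were called undetected. Deviations and CVs used median-of-ratios size factors. Libraries differed beyond sampling noise (chi-square per degree of freedom of at least 11.7). Named in full were the 10 highest members, complexes II and III, the isoform pairs, the 5 highest CVs and undetected members. Replicates are pools of mice. The values of 1 member are not reported here. TMM factors came from edgeR 4.0.16 in R 4.3.3, other steps from Python 3.11.15 with numpy 2.4.6, pandas 2.3.3 and scipy 1.17.1. Other lengths, scalings, filters and pseudocounts and leaving out each replicate were tried. Steps were tested on simulated data. A count of 0 allows up to 3 counts, and intervals cover counting error only.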

Additional observations from a re-analysis of the deposited data

How the results depend on the processing

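No paired analysis was possible because there was 1 group. The number of detected members was 86 with a CPM limit of 0.5 or a limit of 10 counts, where Cox7a1 also passed, and 85 with TMM library sizes or without any 1 replicate. With the median coding transcript length the members' share of TPM was 1.44%, the medians of complexes I to V were 121, 131, 195, 252.5 and 222 TPM, and that of the assembly factors 30.7 TPM. The log2 difference between subunits and assembly factors was 1.95, the shares of Atp5g1, Atp5g2 and Atp5g3 were 8.61%, 6.62% and 84.8%, and the mitochondrial minus nuclear differences in complexes I, III, IV and V were 6.23, 6.91, 1.69 and 1.17. With the principal transcript length, chosen after seeing the data, the share was 1.95%, the medians 171, 184, 250.4, 333 and 305 TPM, and the assembly factors 42.7 TPM. The subunit minus assembly difference was then 1.98, the core minus accessory difference 0.13, the c subunit shares 5.13%, 6.49% and 88.4%, and the mitochondrial differences 6.48, 7.31, 2.03 and 1.46. With the effective length the share was 2.07%, the medians 164, 208, 244, 314 and 167 TPM, the assembly factors 52.1 TPM and the mitochondrial difference in complex V 3.55. Scaling over all genes moved the levels most, since the share was then 0.561% and the medians were 47.5, 61.6, 69.8, 84.0 and 50.9 TPM, with assembly factors at 15.8 TPM. With means over genes, complexes I to IV stood at 138, 159, 230.5 and 309 TPM, assembly factors at 43.9 TPM, the core minus accessory difference at 0.32, and the mitochondrial differences in complexes I and IV at 6.31 and 4.39. The Spearman correlation across detected members of level with length, a description over genes that share libraries, was -0.50, and -0.33, -0.57, -0.43 and -0.25 with the median coding, effective and principal lengths and with no filter. It ranged from -0.51 to -0.49 when 1 replicate was left out. Over all detected protein-coding genes the correlation was -0.11, and -0.15 with principal lengths. Because TPM divides by length, level and length are not independent.

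Leaving out replicates changed the replicate deviations. The median CV ranged from 4.89% (without replicate 3) to 8.25%. The median deviation ranged from 0.00916 to 0.0767 in replicate 1, from -0.00916 to 0.0593 in replicate 2, where it turned below 0 without replicate 3, and from -0.0767 to -0.0593 in replicate 3. Scaled to protein-coding totals it was -0.0615 in replicate 3. With 1 replicate left out, the deviations in the other 2 are equal and opposite by construction. The ranges above therefore rest on 3 sizes, 0.00916, 0.0593 and 0.0767. Without replicate 3, replicate 2 lay below 0 because replicate 1 lay above it. Why the sizes differed was not tested. Members lowest in replicate 3 numbered 65 in normalized counts and 44 in TPM, an alternative also chosen after seeing the data. Of 274 alternative values over 38 results, 176 moved by less than the spread between replicates (counts by less than 1.5 times), 97 by more, and 1 changed sign. For results with a single value, the spread was that of the values with 1 replicate left out. The change from 65 to 44 fell within the limit for counts. With 3 replicates of 1 group no exact test could reach 0.05, and the near-zero isoforms are limited by counts of 12 or fewer a library, Cox7a1 excepted.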
